A study of Homo sapiens with 12 samples.

Results

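The 46 genes described here carry out DNA replication and mitosis in HEK293T cells. They were chosen by name, with earlier results of these data known, as 23 genes of the G1/S transition and 23 genes of the G2/M transition. They come from 24396 features obtained by summing the deposited read counts of all transcripts of a gene. All 46 passed the filter on low counts, which kept 14613 genes for testing. HEK293T, a line derived from human embryonic kidney, makes the SV40 large T antigen, and messenger RNA was sequenced from 12 cultures, 3 in each of 4 groups. Every culture was transfected transiently, by Lipofectamine 2000, with plasmids for guide RNAs to 4 sites at IL1RN and for 1 of 4 proteins, so the guides and a dCas9 protein were present in the controls too. The control group received dCas9 alone, which binds DNA without cutting it. The second group received dCas9-VP64, a fusion to a viral activation domain, and the third dCas9-p300 core, a fusion to the acetyltransferase domain of p300. The fourth received dCas9-p300 D1399Y, the same fusion with a substitution that removes acetyltransferase activity. The labels put transfection efficiency, seen with a control eGFP plasmid, above 80%, so each library is a bulk of transfected and untransfected cells. Untransfected cells were not analysed here, and when cells were harvested is not given in the sources used. The comparisons ask whether the RNA of the replication and mitosis genes, a readout of proliferation, differed between proteins.

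Genes of the 2 classes are transcribed in waves. At G1/S, E2F transcription factors, held in check by the retinoblastoma protein until cyclin-dependent kinases phosphorylate it, drive genes that license and fire replication origins, build the fork and supply nucleotides. Later, complexes that bind the cell cycle genes homology region (CHR), often with NF-Y at a nearby CCAAT box, drive the genes of spindle assembly, chromosome condensation and exit from mitosis. Large T antigen binds the retinoblastoma protein and frees E2F, so that check is weakened in HEK293T cells. In bulk RNA of unsynchronised cells, fewer cells in a phase and less RNA in each such cell cannot be told apart.

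The letters of the 2 programmes can be read in the promoters of the members, which are shown because the classes differ there while their RNA differed little between groups. Of the 46 members, 38 had a promoter in the RefSeq table (GRCh38.p14), taken at the first start listed for each gene as the 250 bases before and 50 bases after it. AURKA, BIRC5, CCNE2, MCM4, MCM5, TPX2, TTK and UBE2C were not among them. The E2F letters searched were TTTCGCGC, TTTGGCGC and TTTCCCGC, the CHR letters were TTTGAA and TTCGAA, and the CCAAT box was searched as CCAAT, each on both strands. An E2F match was found in 12 of 20 G1/S promoters (60.0%), in 2 of 18 G2/M promoters (11.1%) and in 2.79% of all 27305 promoters of that length. A CHR match was found in 2 G1/S promoters (10.0%), in 11 G2/M promoters (61.1%) and in 16.6% of all promoters. CCAAT was found in 14 promoters of each class (70.0% and 77.8%) and in 35.7% of all promoters. Both CHR and CCAAT stood in 10 G2/M promoters (55.6%), in 2 G1/S promoters and in 6.58% of all promoters. A match describes the letters and is not a site of binding.

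The 2 G1/S and 2 G2/M members with the most matches of their own class are printed below, from 250 bases before the start up to it, 5′ to 3′ on the strand of the gene, with the matches of the gene's own class in capitals (E2F letters for MCM6 and MCM7, CHR and CCAAT letters for TOP2A and CENPF). MCM6 and MCM7 are subunits of the replicative helicase, TOP2A is the topoisomerase that untangles sister chromatids, and CENPF is a kinetochore protein. Ties were settled by the total count over the 12 libraries: MCM2 and MCM3 had 2 matches like MCM7, and CCNB2 had 5 like CENPF.
MCM6 (chr2:135876444-135876693, minus strand): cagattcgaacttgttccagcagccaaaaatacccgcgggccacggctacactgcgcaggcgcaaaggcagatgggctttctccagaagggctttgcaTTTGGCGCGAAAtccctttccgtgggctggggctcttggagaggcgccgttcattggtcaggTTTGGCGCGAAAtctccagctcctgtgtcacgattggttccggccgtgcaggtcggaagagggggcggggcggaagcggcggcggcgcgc
MCM7 (chr7:100101398-100101647, minus strand): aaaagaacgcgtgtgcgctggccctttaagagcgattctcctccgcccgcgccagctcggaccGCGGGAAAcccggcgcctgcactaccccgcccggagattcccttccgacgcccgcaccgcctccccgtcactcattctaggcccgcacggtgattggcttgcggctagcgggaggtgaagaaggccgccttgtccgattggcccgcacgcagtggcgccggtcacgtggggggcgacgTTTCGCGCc
TOP2A (chr17:40417897-40418146, minus strand): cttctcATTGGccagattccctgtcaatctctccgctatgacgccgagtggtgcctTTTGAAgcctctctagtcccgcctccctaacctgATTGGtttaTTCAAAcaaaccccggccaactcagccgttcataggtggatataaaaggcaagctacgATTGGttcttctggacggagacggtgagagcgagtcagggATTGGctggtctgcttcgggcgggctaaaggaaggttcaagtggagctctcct
CENPF (chr1:214602945-214603194, plus strand): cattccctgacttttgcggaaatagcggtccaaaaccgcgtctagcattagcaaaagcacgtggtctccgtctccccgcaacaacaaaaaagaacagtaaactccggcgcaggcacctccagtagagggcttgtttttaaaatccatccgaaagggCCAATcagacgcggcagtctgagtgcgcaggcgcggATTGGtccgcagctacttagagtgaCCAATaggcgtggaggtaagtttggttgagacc
In MCM6, each run of capitals holds an E2F match on both strands, and the matches of a pair overlap, so its 4 matches fill 2 places. TOP2A held 6 matches, 4 of CCAAT and 2 of CHR, and the 3 CENPF matches before the start were all CCAAT. MCM7 had 1 match on each strand.

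The shallowest library, dCas9 replicate 3, held 2442960 counts and the deepest, replicate 2 of the p300 core group, 5154627, with 3633590 to 4228316 in the other 10. The mean IL1RN level, the check of the labels, in CPM, was 83.6 ± 8.64 (SD, n = 3) for the p300 core, 24.7 ± 6.07 for VP64, 7.78 ± 1.42 for D1399Y and 6.74 ± 2.51 for dCas9. CPM is the unit of edgeR that divides counts by library size after TMM scaling. All 8 renal and neuronal progenitor genes taken as marks of HEK293T had counts in every library, while the keratinocyte genes KRT5, KRT14 and KRT1, THY1 of fibroblasts and CD3E and HBB of blood had 0 counts in all 12. dCas9 replicate 3 stood apart from the other libraries in depth and, as given further on, in how its counts followed transcript length. The medians against dCas9 by class, role and list, and the fold changes of the genes named in those comparisons, are given with and without it. The labels state triplicates and do not say that the cultures were independent, so the spread behind each p-value is that of these samples and may be technical.

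Levels per length were taken from the counts of the most counted transcript alone, over its length and the raw library total. On that scale PCNA, the sliding clamp of the fork, had the highest median over the 12 libraries, 92.7 CPM per kilobase with a range from 81.6 to 138. TOP2A had a median of 88.8 (71.3 to 99.4), RRM1, the large subunit of ribonucleotide reductase, of 71.3 (63.9 to 76.9), and CDK1, the mitotic kinase, of 63.5 (56.6 to 80.9). These ranges overlap between neighbours in the order. At the other end were the G1 cyclins CCNE1 and CCNE2, both at a median of 12.9, and MKI67, the Ki-67 antigen that coats mitotic chromosomes, at 7.89 CPM per kilobase. The long transcript of MKI67 gave it many counts at a low level per base. The most counted transcript of each gene held 50.1% of the counts of PCNA, 20.8% of those of NUSAP1 and 18.3% of those of AURKA. The order thus depends on how transcripts are counted. With the counts of all transcripts of a gene over the same length, PCNA was still first at a median of 186 CPM per kilobase, but CDK1 (133), PRC1 (129), MCM7 (117) and NUSAP1 (113) came next and TOP2A, at 88.8, was in place 11. MKI67 was then at 14.6, above CCNE1 and CCNE2 at 12.9. If a read shared by isoforms was counted in each of them, such sums count it more than once.

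Among the G1/S genes, the fork gene PCNA was at 257, 229 and 336 CPM in replicates 1 to 3 of dCas9, at 255, 265 and 248 CPM with dCas9-VP64, at 247, 215 and 240.0 CPM with dCas9-p300 core and at 253, 241 and 258 CPM with D1399Y. dCas9 replicate 3 was the highest, and the 4 groups overlapped. MCM2, a helicase subunit loaded at origins, was at 342, 336 and 373 CPM with dCas9, at 353, 319 and 319.7 CPM with dCas9-VP64, at 383, 326 and 301 CPM with the p300 core and at 347, 303 and 318 CPM with D1399Y. Both its highest and its lowest library belonged to the p300 core group. CDC6, which loads that helicase, was at 125, 131 and 142 CPM with dCas9, at 124, 139.7 and 120.4 CPM with dCas9-VP64, at 115, 117 and 124 CPM with the p300 core and at 113, 126 and 119 CPM with D1399Y. All 3 p300 core libraries lay below all 3 dCas9 libraries, by a margin smaller than the spread within either group.

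E2F1, the transcription factor of the G1/S wave and itself one of its targets, was at 77.6, 86.3 and 114 CPM with dCas9, at 67.5, 76.1 and 83.7 CPM with dCas9-VP64, at 81.8, 80.2 and 84.5 CPM with the p300 core and at 75.2, 72.6 and 79.1 CPM with D1399Y. dCas9 replicate 3 was again above the other 11 libraries, and the p300 core and D1399Y groups did not overlap. CCNE1, cyclin E1, which activates CDK2 at S phase entry, was at 22.1, 22.7 and 33.0 CPM with dCas9, at 29.0, 26.5 and 29.5 CPM with dCas9-VP64, at 26.0, 26.3 and 27.1 CPM with the p300 core and at 24.7, 22.5 and 29.8 CPM with D1399Y. The dCas9 group spanned the whole range. CCNE2, cyclin E2, was at 30.3, 37.1 and 25.9 CPM with dCas9, at 43.7, 31.0 and 42.8 CPM with dCas9-VP64, at 29.1, 31.3 and 43.1 CPM with the p300 core and at 33.9, 58.4 and 43.9 CPM with D1399Y. Its highest library was D1399Y replicate 2 and its lowest dCas9 replicate 3, which was the highest for E2F1. The CCNE2 levels rest on 70 to 202 counts per library. RRM2, the small subunit of ribonucleotide reductase, was at 269, 198 and 198 CPM with dCas9, at 247, 210.2 and 197 CPM with dCas9-VP64, at 233, 200.1 and 195 CPM with the p300 core and at 224, 243 and 208 CPM with D1399Y. All groups overlapped.

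Among the G2/M genes, CCNB1, cyclin B1, the partner of CDK1, was at 132, 115 and 149 CPM with dCas9, at 126, 119.6 and 107 CPM with dCas9-VP64, at 129, 110.5 and 109 CPM with the p300 core and at 122, 115 and 131 CPM with D1399Y. CDK1 was at 259.6, 245 and 279.7 CPM with dCas9, at 242, 256 and 276 CPM with dCas9-VP64, at 217, 223 and 262 CPM with the p300 core and at 247, 336 and 264 CPM with D1399Y. The highest CDK1 library was D1399Y replicate 2, and for both genes the groups overlapped. PLK1, a kinase of spindle assembly and mitotic exit, was at 96.6, 76.3 and 97.4 CPM with dCas9, at 88.6, 79.1 and 86.3 CPM with dCas9-VP64, at 94.0, 71.1 and 72.4 CPM with the p300 core and at 84.7, 66.2 and 86.5 CPM with D1399Y. Its 3 highest libraries came from the dCas9 and p300 core groups. AURKA, the centrosomal Aurora kinase, was at 211, 180.1 and 181 CPM with dCas9, at 183, 151 and 185 CPM with dCas9-VP64, at 169.8, 179 and 173 CPM with the p300 core and at 191, 174 and 179.9 CPM with D1399Y. The p300 core libraries lay just below the dCas9 libraries, with no overlap.

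CDC20, the activator of the anaphase-promoting complex, was at 65.7, 48.8 and 68.2 CPM with dCas9, at 58.3, 60.3 and 58.3 CPM with dCas9-VP64, at 63.8, 51.8 and 55.0 CPM with the p300 core and at 57.0, 40.8 and 64.4 CPM with D1399Y. D1399Y replicate 2 was the lowest. MKI67 was at 253, 234 and 125 CPM with dCas9, at 166, 129 and 186 CPM with dCas9-VP64, at 170.3, 219.6 and 241 CPM with the p300 core and at 213, 143 and 181 CPM with D1399Y. Both its highest and its lowest library were dCas9 controls, so the proliferation marker varied within the control group as much as over all 12 libraries. TOP2A was at 576, 514 and 372 CPM with dCas9, at 531, 514 and 468 CPM with dCas9-VP64, at 503, 469.6 and 524 CPM with the p300 core and at 554, 612 and 511 CPM with D1399Y. It was lowest in dCas9 replicate 3 and highest in D1399Y replicate 2.

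Taken over each class, the log2 ratio of a member to its mean over the 12 libraries had a median close to 0 in most libraries. In the dCas9 group the G1/S median was 0.03, -0.06 and 0.19 and the G2/M median 0.21, -0.01 and -0.06 in replicates 1 to 3. The balance thus tipped toward G2/M in dCas9 replicate 1, where 21 of 23 G2/M genes were above their mean, and toward G1/S in dCas9 replicate 3, where 15 of 23 G1/S genes and 11 of 23 G2/M genes were. In the other 10 libraries the G1/S median lay between -0.09 and 0.05 and the G2/M median between -0.09 and 0.04. The lowest of these was p300 core replicate 2, with -0.09 for both classes and only 3 G1/S and 4 G2/M genes above their mean. D1399Y replicate 3 had the most G1/S genes above their mean, 18 of 23, at a median of 0.05.

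**Figure D1:**
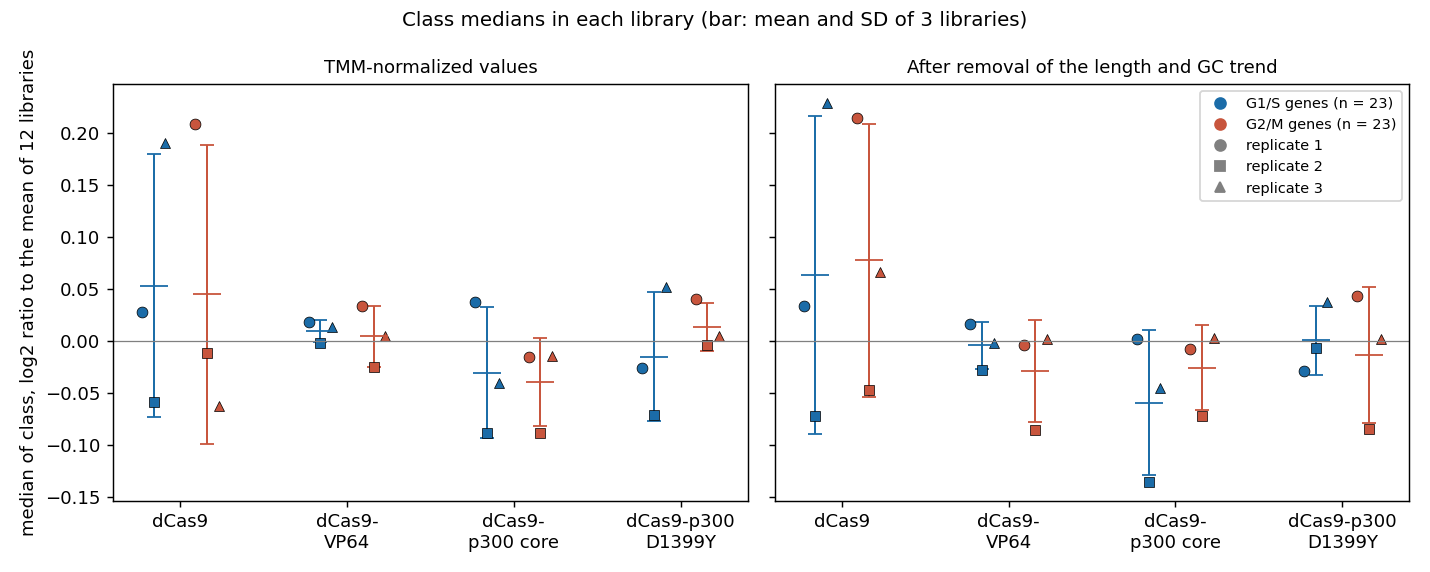
Median log2 ratio of the 23 G1/S and the 23 G2/M genes to their mean over the 12 libraries (vertical axis) by group, before (left) and after (right) removal of the trend on length and GC content, with 1 point per library (shape gives the replicate) and bars for the mean and SD of 3 libraries. The dCas9 libraries spread the most, with a G2/M median of 0.21 in replicate 1 and a G1/S median of 0.19 in replicate 3 before removal.

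The balance between the classes gave the same picture on the scale of summed CPM. The ratio of the G1/S sum to the G2/M sum was 0.868, 0.935 and 1.19 for dCas9, 0.972, 0.995 and 0.981 with dCas9-VP64, 1.01, 0.939 and 0.910 with the p300 core and 0.916, 0.909 and 0.988 with D1399Y. Its mean was 0.996 ± 0.167 (SD, n = 3), 0.983 ± 0.0116, 0.954 ± 0.0532 and 0.938 ± 0.0438 in that order of groups. Each of the other groups lay inside the range of the dCas9 group, and the means differed by less than the SD of the controls. The G1/S genes together took 0.366% to 0.496% of a library's counts and the G2/M genes 0.396% to 0.449%.

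Single members differed widely in how steady they were. The ratio of the highest to the lowest of the 12 libraries was 1.14 for MCM6, 1.16 for PRC1, which bundles microtubules of the central spindle, 1.20 for MCM4 and 1.21 for CCNA2, cyclin A2. It reached 3.03 for CENPE, the kinetochore motor, 2.37 for AURKB, the Aurora kinase of the chromosomal passenger complex, 2.34 for CENPF, 2.25 for CCNE2, 2.17 for CDT1, a licensing factor, and 2.02 for MKI67. Over the 46 members the median ratio was 1.57, with 18 under 1.5 and 6 over 2. The median SD within groups, on the log2 scale, was 0.17 for the G1/S genes and 0.19 for the G2/M genes, beside 0.21 for 8744 genes in the same range of levels. The extremes fell in few libraries. dCas9 replicate 3 was the highest library for 19 members (13 of them G1/S) and the lowest for 12 (9 of them G2/M), D1399Y replicate 2 was the highest for 8 and the lowest for 10, and dCas9 replicate 1 was the highest for 11, of which 9 were G2/M genes.

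**Figure D2:**
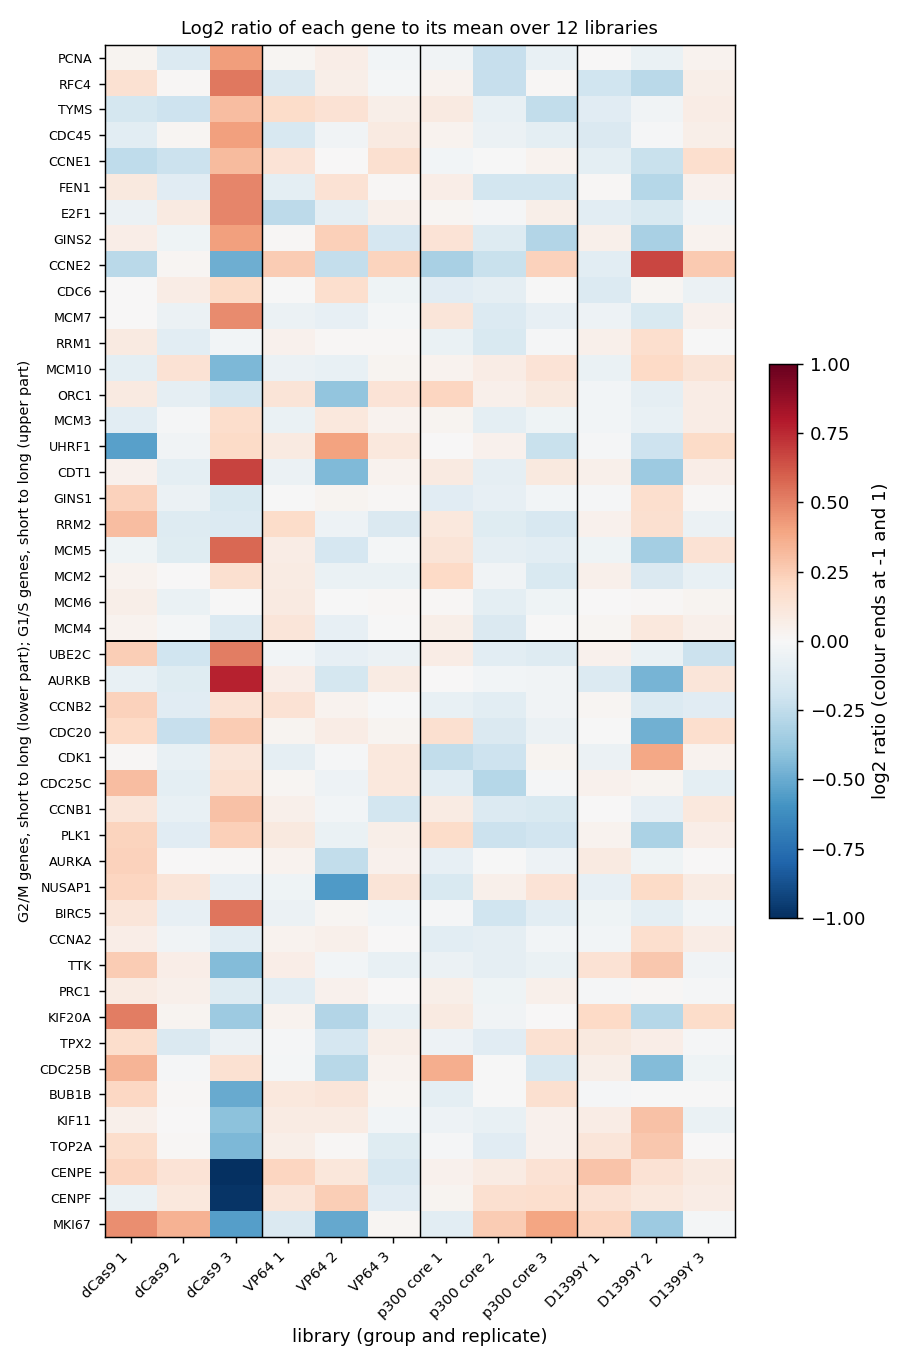
Log2 ratio of each of the 46 members (rows, G1/S above G2/M, each from short to long transcripts) to its mean over the 12 libraries (columns, by group and replicate), as colour that ends at -1 and 1. The column of dCas9 replicate 3 holds the strongest colours in both directions, with CENPE at -1.31 and AURKB at 0.77, while the rows of MCM6 and PRC1 stay pale throughout.

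The strongest departures followed transcript length and base composition. In dCas9 replicate 3 the members of long transcripts were low: CENPE (8612 bases) had a log2 ratio of -1.31 to its mean, CENPF (10307 bases) of -0.98 and MKI67 (12678 bases) of -0.55. CENPE was at 58.9 CPM there and between 131 and 179 CPM in the other 11 libraries. Members of short or GC-rich transcripts were high, with AURKB (1227 bases, 56.6% GC) at 0.77 and CDT1 (64.9% GC) at 0.67. The median over the 9 members under 2000 bases was 0.41 and that over the 6 members over 4000 bases -0.50, beside 0.44 for 2927 and -0.55 for 4360 genes of the same length classes over the whole table. Across the 46 members, the correlation of the log2 ratio with log2 length was -0.72 in that library, and across 12086 genes it was -0.60. In dCas9 replicate 2 the correlation had the other sign, 0.64 across the members and 0.35 across all genes, over a smaller range: the median of the short members was -0.12 and that of the long ones 0.06. It was 0.62 across the members in D1399Y replicate 1 and 0.57 and 0.49 in replicates 2 and 3 of the p300 core. In D1399Y replicate 2 the correlation with GC content was -0.79 across the members and -0.69 across all genes, and CCNE2, at 35.4% GC, had a log2 ratio of 0.67 there. These correlations describe genes of 1 library, which share its preparation and depth and are not independent replicates.

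**Figure D3:**
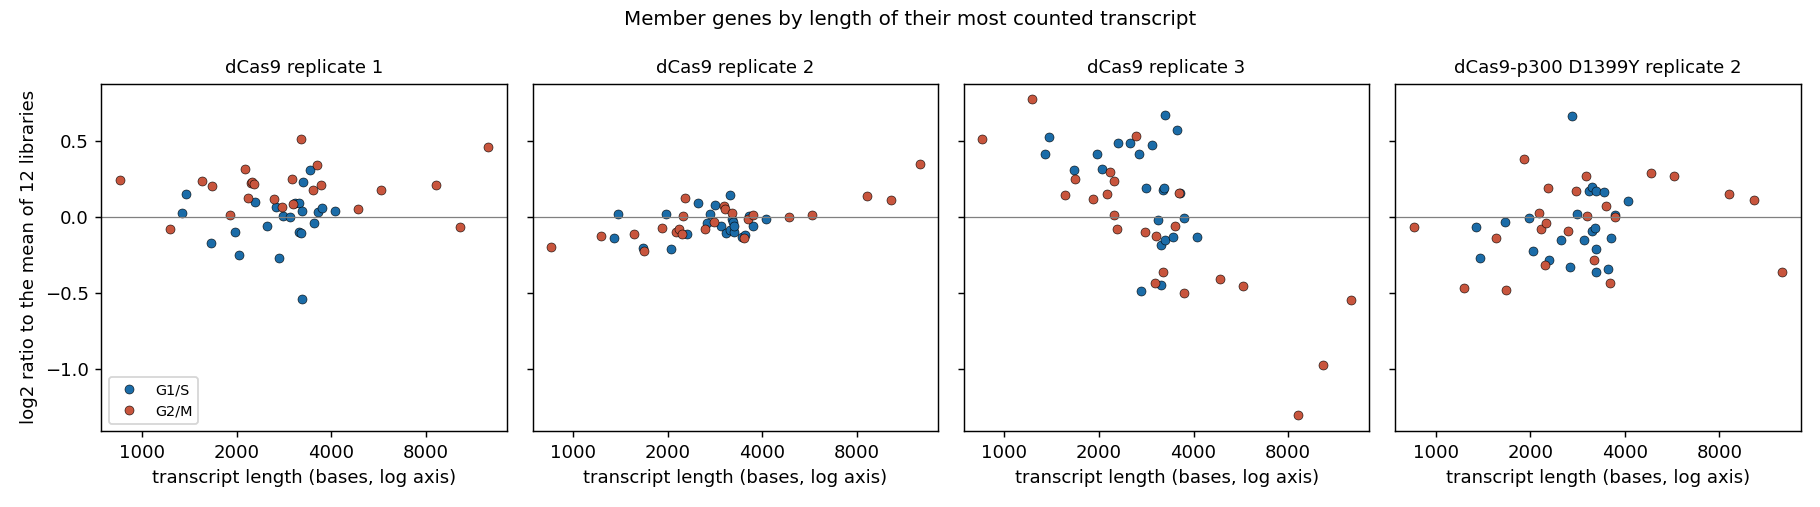
Log2 ratio of each member to its mean over the 12 libraries (vertical axis) against the length of its most counted transcript (horizontal axis, bases, log scale), for the 3 dCas9 libraries and D1399Y replicate 2, with G1/S genes in blue and G2/M genes in red. In dCas9 replicate 3 most short transcripts lie above 0 and the longest below it, with a correlation of -0.72 across the 46 members, while in dCas9 replicate 2 the points span less and run the other way, with a correlation of 0.64.

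The classes differ in these properties. G1/S transcripts ran from 1344 to 4105 bases with a median GC content of 49.8%, and G2/M transcripts from 850 to 12678 bases with a median of 45.95%, so every member transcript over 4105 bases was a G2/M one. After the trend on length and GC content over all genes was taken out of each library, an addition made after the data were seen, CENPF in dCas9 replicate 3 moved from -0.98 to 0.05, CENPE from -1.31 to -0.28 and MKI67 from -0.55 to 0.36. The G1/S median of that library was then 0.23 and its G2/M median 0.07, both above 0. In dCas9 replicate 1 the medians stayed at 0.03 and 0.21, with 21 of 23 G2/M genes above 0 as before. Over the 12 libraries the difference between the class medians ran from -0.18 to 0.25 before the trend was removed and from -0.18 to 0.16 after it. What made the 2 dCas9 libraries differ was not tested.

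No member passed the threshold of an adjusted p of 0.05 in any of the 4 comparisons by edgeR's quasi-likelihood test with Benjamini-Hochberg adjustment over 14613 genes, nor by DESeq2 or limma-voom. The comparisons with dCas9 share its 3 libraries, so values that recur in them are not independent. A 95% interval that stayed within a 2-fold change either way was had by 46 members for dCas9-VP64, 46 for the p300 core and 45 for D1399Y against dCas9, and by 46 for the p300 core against D1399Y. The exception was CCNE2 with D1399Y, whose upper bound was 2.04-fold. Within 1.5-fold either way lay the intervals of 33, 36, 33 and 42 members in that order. These intervals are for single genes, without adjustment over all genes, so they are not limits of detection at the threshold. IL1RN with dCas9-VP64, at a log2 fold change of 1.90, did not pass it. With 3 libraries a group, changes of smaller size may go undetected in all members.

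For dCas9-VP64 against dCas9, 0 of 46 members passed, as did 0% of all genes tested, and the smallest adjusted p of a member was 0.929 (edgeR). The targeted gene IL1RN did not pass either, at a log2 fold change of 1.90 ± 0.26 (SE, adjusted p = 0.075 by edgeR). Its groups did not overlap, so a count of 0 here does not exclude real changes. At an unadjusted p under 0.05 there were also 0 members, by edgeR, DESeq2 and limma-voom alike, beside 1.79% of all genes higher and 1.29% lower by edgeR. In 0 members did the groups not overlap, against 3.2% of genes higher and 2.74% lower. The median log2 fold change was -0.02 for G1/S genes, 10 of them above 0, and -0.04 for G2/M genes, 6 of them above 0, beside 0.00 over all genes tested. The smallest unadjusted p values belonged to E2F1 at -0.28 ± 0.15 (SE), CDT1 at -0.38 ± 0.20 and RFC4, a subunit of the clamp loader, at -0.28 ± 0.15 among G1/S genes. Among G2/M genes they belonged to UBE2C, the ubiquitin-conjugating enzyme of the anaphase-promoting complex, at -0.27 ± 0.16, to BIRC5, the passenger protein survivin, at -0.24 ± 0.14 and to CENPF at 0.33 ± 0.21. Without dCas9 replicate 3 these 6 values were -0.12, -0.11, -0.12, -0.092, -0.044 and 0.069. The count at an unadjusted p under 0.05 by edgeR was not 0 in that fit. It held 1 gene of nucleotide supply and 1 of the fork, both higher. Lower were 1 kinetochore or spindle gene and 1 of MKI67 and TOP2A. None passed the adjusted threshold, and the share over all genes in that fit is not given here.

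For dCas9-p300 core against dCas9, 0 of 46 members passed, beside 0.00684% of genes, which was IL1RN alone, and the smallest adjusted p of a member was 0.879 (edgeR). At an unadjusted p under 0.05 stood 1 member by edgeR, lower, beside 1.07% of genes lower and 2.03% higher, 1 member by DESeq2 and 0 by limma-voom. That member was BIRC5, which was at 294, 256 and 392 CPM with dCas9 and at 268, 235 and 252 CPM with the p300 core. Its log2 fold change was -0.32 ± 0.14 (SE, unadjusted p = 0.044 by edgeR), and -0.13 without dCas9 replicate 3, its highest library. The groups did not overlap for 2 members, CDC6 at -0.16 ± 0.12 and AURKA at -0.13 ± 0.12 (-0.11 and -0.17 without dCas9 replicate 3), both lower, beside 3.02% of genes lower and 3.89% higher. RFC4 was at -0.30 ± 0.15, FEN1, the flap endonuclease of Okazaki fragments, at -0.27 ± 0.16, PCNA at -0.23 ± 0.14, CDC25C, a phosphatase that activates CDK1, at -0.27 ± 0.14 and CENPF at 0.36 ± 0.21. Without dCas9 replicate 3 these were -0.15, -0.091, -0.057, -0.26 and 0.098, so CDC25C alone of these 5 kept nearly its whole size there. Over single libraries left out, CDC25C ran from -0.37 to -0.18 and AURKA from -0.17 to -0.070. Both genes were highest in dCas9 replicate 1.

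For dCas9-p300 D1399Y against dCas9, 0 of 46 members passed, as did 0% of genes, and the smallest adjusted p of a member was 0.633 (edgeR). At an unadjusted p under 0.05 stood 2 members by edgeR, 1 higher beside 2.88% of genes and 1 lower beside 3.01%. DESeq2 gave 2 and limma-voom 1. RFC4 was at 121, 109.8 and 156 CPM with dCas9 and at 94.7, 89.9 and 113 CPM with D1399Y, a log2 fold change of -0.37 ± 0.16 (SE, unadjusted p = 0.031 by edgeR). CCNE2, with the values given above, had a log2 fold change of 0.53 ± 0.23 (unadjusted p = 0.036 by edgeR). For both genes the groups overlapped. Without dCas9 replicate 3 they were at -0.21 and 0.43, and CCNE2 was at 0.30 without D1399Y replicate 2, its highest library. The groups overlapped for all 46 members, beside 3.44% of genes not overlapping and higher and 3.82% lower. E2F1 was at -0.29 ± 0.15, AURKB at -0.38 ± 0.22, BIRC5 at -0.27 ± 0.14 and UBE2C at -0.29 ± 0.16, and without dCas9 replicate 3 at -0.12, -0.033, -0.074 and -0.11. They also moved in alternatives other than leaving out 1 library. There E2F1 ran from -0.37 to -0.046, AURKB from -0.54 to -0.072, BIRC5 from -0.36 to -0.21 and UBE2C from -0.46 to -0.025.

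The class medians for the p300 core against dCas9 were -0.08 for G1/S genes (6 of 23 above 0) and -0.08 for G2/M genes (8 above 0), beside 0.02 over all genes. For D1399Y against dCas9 they were -0.03 and -0.06, with 9 of 23 above 0 in each class, beside 0.00. Their size and in part their direction rested on single control libraries. Without dCas9 replicate 3 the G1/S medians were 0.007 for dCas9-VP64, -0.002 for the p300 core and 0.011 for D1399Y, and the G2/M medians -0.072, -0.092 and -0.073. Without dCas9 replicate 1 the G2/M medians were 0.002, -0.024 and 0.018. The labels place replicate 3 of both p300 groups in pool CV42 and the other 10 libraries in pool CV41. Within CV41 the medians against dCas9 were -0.098 and -0.079 for the p300 core and -0.10 and -0.060 for D1399Y (G1/S, then G2/M).

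**Figure D4:**
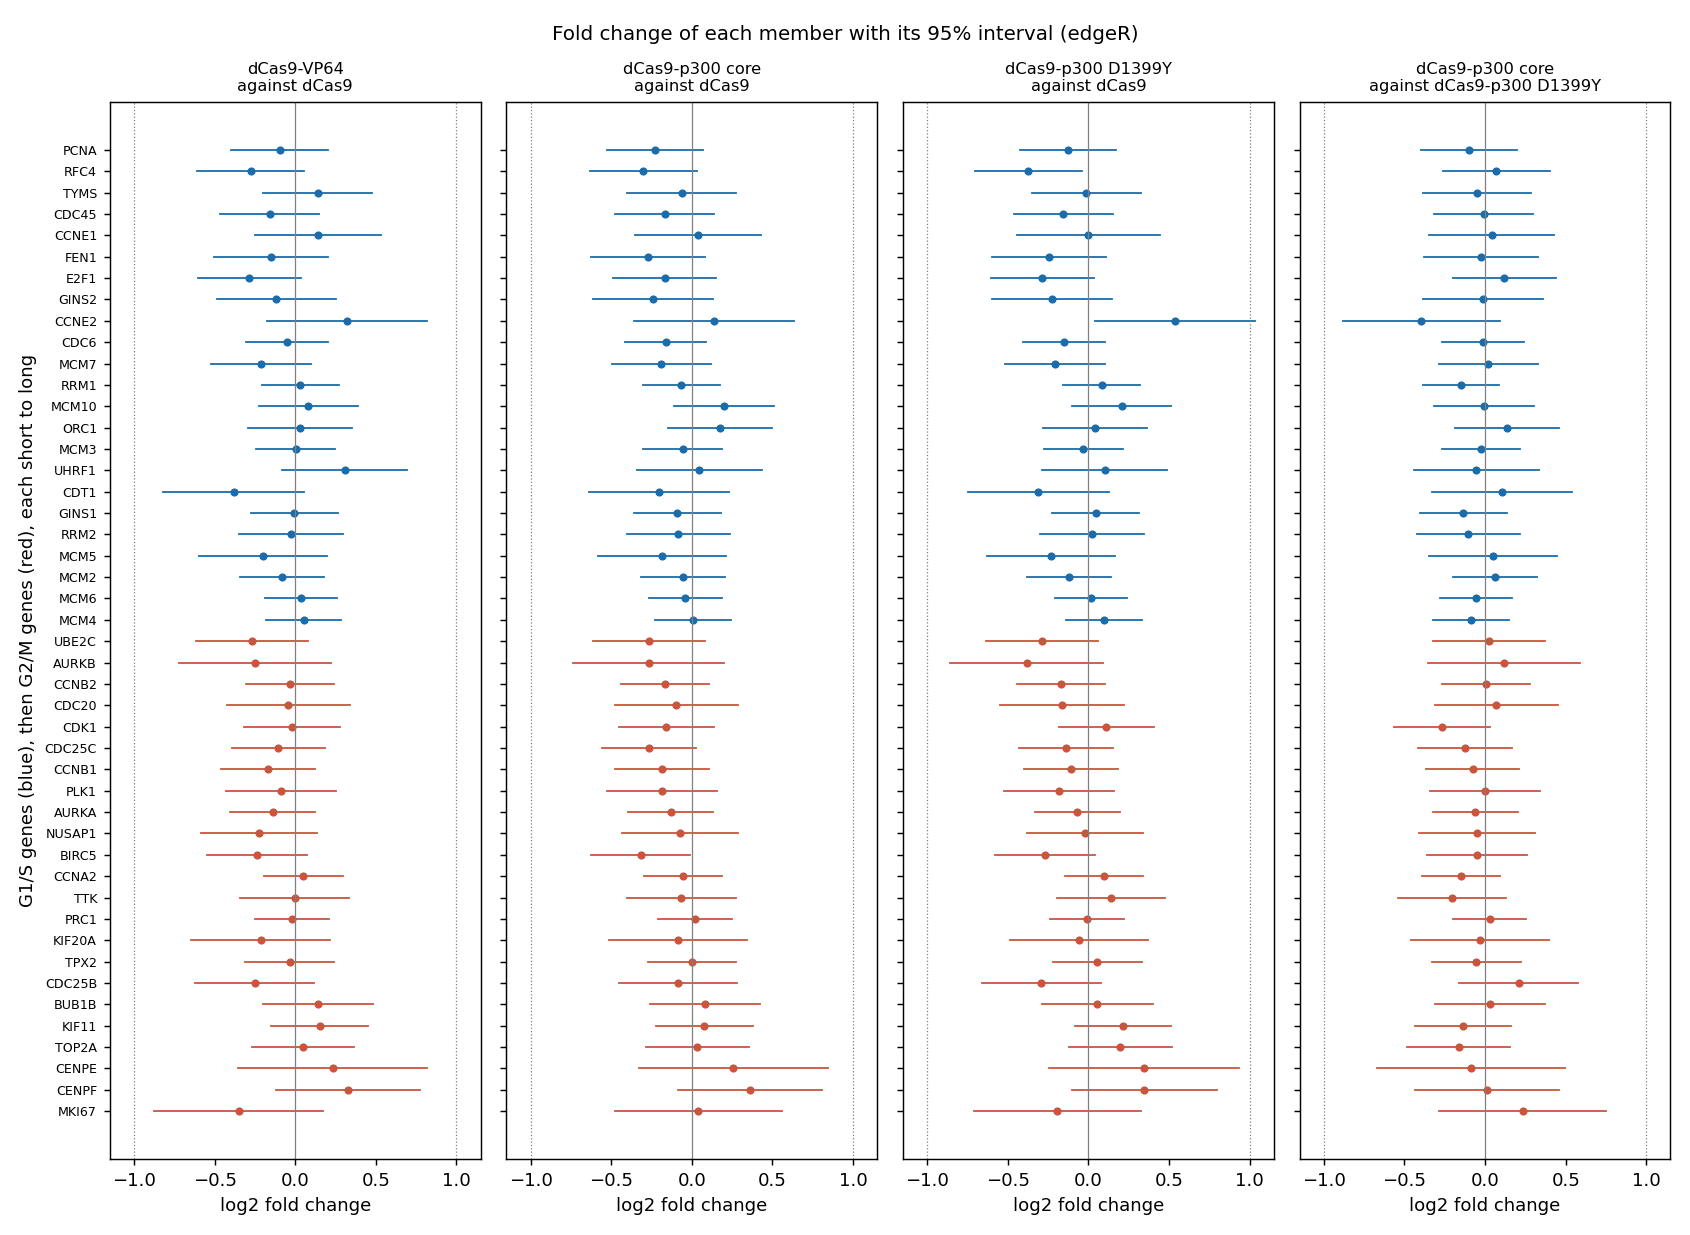
Log2 fold change (horizontal axis) of the 46 members (rows, G1/S in blue, G2/M in red, each from short to long transcripts) in the 4 comparisons, as the edgeR estimate with its 95% interval, and dotted lines at a 2-fold change either way. The estimates lie between -0.40 and 0.53, and the interval of CCNE2 with D1399Y is the only one that crosses a dotted line.

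By role, the spindle and centromere kinases with their passenger partner (PLK1, AURKA, AURKB and BIRC5) had 0 of 4 members above 0 in each comparison with dCas9, at medians of -0.19, -0.23 and -0.23 for dCas9-VP64, the p300 core and D1399Y. Those medians without dCas9 replicate 3 were -0.035, -0.13 and -0.087, with 1, 1 and 0 of 4 above 0. The fork genes PCNA, FEN1, RFC4 and UHRF1, which recruits the maintenance DNA methyltransferase, had medians of -0.12, -0.25 and -0.18 with 1 of 4 above 0 each time, and that gene was UHRF1. Without dCas9 replicate 3 the fork medians were 0.054, -0.074 and -0.005, with 3, 1 and 2 of 4 above 0, so their size and in part their direction rested on that library. UHRF1 was at 105, 149 and 174 CPM with dCas9 and at 163, 202 and 165 CPM with dCas9-VP64, which overlapped. The 9 licensing genes (MCM2 to MCM7, CDC6, CDT1 and ORC1) had medians of -0.05, -0.06 and -0.12, and without that library of 0.001, -0.002 and -0.013. The 7 kinetochore and spindle genes, among them the long CENPE and CENPF, had medians of -0.02, 0.02 and 0.06, and without it of -0.083, -0.053 and 0.007. The genes of nucleotide supply, RRM1, RRM2 and TYMS (thymidylate synthase), had medians of 0.03, -0.07 and 0.02, and without it of 0.027, -0.073 and 0.081. CDC25B and CDC25C had medians of -0.177, -0.175 and -0.215, and without it of -0.173, -0.174 and -0.209, with 0 of 2 above 0 throughout. CDK1 and the cyclins CCNA2, CCNB1 and CCNB2 had medians of -0.03, -0.16 and -0.01, and without it of 0.005, -0.10 and 0.026. With the p300 core 0 of these 4 were above 0 either way. Origin firing genes (MCM10, GINS1, GINS2 and CDC45) had medians of -0.06, -0.13 and -0.06, and without it of -0.026, -0.050 and -0.008. CCNE1, CCNE2 and E2F1 had medians of 0.14, 0.04 and -0.00, and without it of 0.21, 0.027 and 0.20. For CDC20, BUB1B, TTK and UBE2C they were -0.02, -0.08 and -0.06, and without it -0.062, -0.090 and -0.092. For MKI67 and TOP2A they were -0.15, 0.04 and 0.00, and without it -0.36, -0.17 and -0.20. Without that library, 1 of MKI67 and TOP2A stood at an unadjusted p under 0.05 by edgeR with D1399Y, lower. None of these groups held a member past the threshold.

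The fold changes of the p300 core against D1399Y use no dCas9 library, but the spread behind their p values is shared over all 12 libraries. With dCas9 replicate 3 left out of that spread, 5 genes in place of 1 and again 0 members passed. The comparison as fitted over all 12 gave 0 of 46 members past the threshold, beside 0.00684% of genes, again IL1RN, with a smallest adjusted p of 1.00 (edgeR). At an unadjusted p under 0.05 stood 0 members by edgeR, DESeq2 and limma-voom, beside 1.37% of genes higher and 0.493% lower by edgeR. The groups did not overlap for 5 members, 1 higher and 4 lower, beside 5.41% of genes higher and 4.49% lower. The higher one was E2F1 at 0.12 ± 0.15 (SE). With offsets for transcript length and GC content its value was -0.037. The lower ones were RRM1 at -0.15 ± 0.11, CCNA2 at -0.15 ± 0.11, TTK, the spindle checkpoint kinase, at -0.20 ± 0.16 and GINS1, a subunit of the active helicase, at -0.13 ± 0.13. CCNA2 was at 93.7, 95.04 and 98.9 CPM with the p300 core and at 99.3, 114 and 106 CPM with D1399Y, the nearest libraries being almost equal. CDK1 stood at -0.27 ± 0.14 and CCNE2 at -0.40 ± 0.23, and without D1399Y replicate 2, where both were highest, at -0.13 and -0.18. The class medians were -0.01 for G1/S genes (8 of 23 above 0) and -0.05 for G2/M genes (9 above 0), beside 0.00 over all genes. Within pool CV41, with 2 libraries a group, they were 0.074 and -0.035. Over single libraries left out the G1/S median ran from -0.061 to 0.030, so its sign was not stable. In these groups CV42 holds only replicate 3, so pool and replicate cannot be told apart.

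Other genes of the cell cycle, listed apart from the 46 members, gave the same count of 0 past the threshold. The 41 other replication genes had medians of 0.03, 0.01 and 0.05 against dCas9 (dCas9-VP64, p300 core, D1399Y) and -0.04 for the p300 core against D1399Y. At an unadjusted p under 0.05 by edgeR stood 2 of 41 higher and 0 lower with dCas9-VP64, 1 higher and 0 lower with the p300 core and 0 higher and 2 lower with D1399Y. The shares over all genes in the same comparisons were 1.79% higher and 1.29% lower, 2.03% and 1.07%, and 2.88% and 3.01%. None stood at that p for the p300 core against D1399Y, while the groups did not overlap for 2 of 41 higher and 8 lower, beside 5.41% and 4.49% of all genes. Against dCas9 they did not overlap for 4 higher and 1 lower with dCas9-VP64, 3 and 0 with the p300 core and 3 and 1 with D1399Y. The shares of all genes were 3.2% and 2.74%, 3.89% and 3.02%, and 3.44% and 3.82%. Genes with the smallest unadjusted p were POLE2, a subunit of the leading-strand polymerase, at 0.50 ± 0.17 (SE) and PRIM2, of primase, at 0.32 ± 0.15 with dCas9-VP64. With the p300 core, GINS4 was at 0.28 ± 0.13 and GMNN (geminin, the inhibitor of CDT1) at -0.31 ± 0.15, and with D1399Y, GINS3 was at -0.25 ± 0.12 and RFC2 at -0.32 ± 0.15. The 42 other mitosis genes had medians of -0.03, -0.02, 0.02 and -0.01 in the same order, with 1 at that p, lower, for the p300 core and 1, higher, for D1399Y. Between the p300 core and D1399Y the groups did not overlap for 1 of 42 higher and 6 lower. Against dCas9 they did not overlap for 2 lower with dCas9-VP64, 3 with the p300 core and 2 with D1399Y, and for 0 higher in each. CKS2, a small partner of CDK1, was at -0.32 ± 0.16 and PTTG1 (securin) at -0.33 ± 0.19 with dCas9-VP64. CKS2 was at -0.38 ± 0.16 and CKS1B at -0.30 ± 0.16 with the p300 core, and ECT2, of cytokinesis, at 0.38 ± 0.17 and PTTG1 at -0.38 ± 0.19 with D1399Y. With dCas9 replicate 3 left out, the medians against dCas9 were 0.014, -0.022 and 0.036 for the other replication genes and -0.11, -0.092 and -0.060 for the other mitosis genes, of which 6, 5 and 10 of 42 were then above 0 in place of 16, 17 and 23. POLE2 was at 0.58, PRIM2 at 0.21, CKS2 at -0.17 and PTTG1 at -0.15 with dCas9-VP64. With the p300 core GINS4 was at 0.24, GMNN at -0.14, CKS2 at -0.23 and CKS1B at -0.090, and with D1399Y GINS3 was at -0.21, RFC2 at -0.15, ECT2 at 0.22 and PTTG1 at -0.20. For the p300 core against D1399Y the smallest unadjusted p values belonged to RFC3 at -0.22 ± 0.14, PRIM2 at -0.20 ± 0.15, MAD2L1, of the spindle checkpoint, at -0.28 ± 0.14 and PBK at -0.23 ± 0.12.

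The 25 regulators of G1 and inhibitors of cyclin-dependent kinases had medians of 0.04, -0.07, -0.00 and -0.05. With D1399Y, 2 higher and 2 lower of 25 were at an unadjusted p under 0.05 by edgeR, beside 2.88% and 3.01% of all genes. None were in the other comparisons. The groups did not overlap for 3 of 25, higher, with D1399Y, beside 3.44% of all genes. They did not for 1, lower, with the p300 core (3.02% of all genes) and 2, lower, for the p300 core against D1399Y (4.49%). The medians against dCas9 without dCas9 replicate 3 were 0.056, -0.039 and 0.033. RB1, the retinoblastoma gene, stood at 0.40 ± 0.23 (SE), 0.43 ± 0.23 and 0.58 ± 0.23 in the 3 comparisons that share the dCas9 libraries, with an adjusted p of 0.929, 0.879 and 0.633 by edgeR, and at 0.13, 0.16 and 0.32 without dCas9 replicate 3. BTG2, an antiproliferative gene, was at 0.38 ± 0.18 with dCas9-VP64. CDKN2C was at -0.25 ± 0.19 with the p300 core and CDKN1C at -0.64 ± 0.26 with D1399Y, both inhibitors of cyclin-dependent kinases. These 3 values without dCas9 replicate 3 were 0.48, -0.076 and -0.56. For the p300 core against D1399Y the inhibitor CDKN2D was at 0.56 ± 0.35 and CDKN1B at -0.16 ± 0.12.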

How the data were processed

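Poly(A) RNA of 12 HEK293T cultures was sequenced, 3 per group. Per the submitters' processing notes, the build was hg19 and the tools DESeq2 1.6.2, R 3.1.2, SAMtools, Bowtie2 and CASAVA. Their roles, the strand setting, duplicate handling and the rule for reads shared by isoforms are not given in the sources used. The authors deposited whole-number read counts for 40709 RefSeq transcripts per library. For the 13 members with 2 listed transcripts, the larger held 50.0% to 55.3% of the gene's sum, so a read shared by isoforms may be counted in each. If the strand was not used in counting, reads of a gene and of one overlapping it on the other strand (TYMS and ENOSF1, for example) cannot be told apart. The highest count per base of a member transcript in any library was 0.422.

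Transcripts were named through RefSeq (39324) and GENCODE (517), and 868 unnamed ones held 1.07% of counts. Both tables are on GRCh38, so no gene coordinates are given for the counts. Counts were summed per gene and tested with edgeR 4.0.16 (R 4.3.3): TMM, filterByExpr (minimum count 10, minimum total 15), quasi-likelihood test on group means over all 12 libraries, two-sided, Benjamini-Hochberg over 14613 genes, threshold 0.05. Errors of fold changes are standard errors, and log2 CPM carried a prior count of 2. Reads have no molecular identifiers, so counting precision is that of reads, not of molecules. Transcript length and GC content were known for 93.6% of tested genes and all 46 members, and their trends were fitted on the 12086 genes whose mean count was 20 or more.

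The members and lists were chosen with earlier results of these data known. Values in every library are given for 7 members of each class chosen by name. In each comparison the 3 members of each class with the smallest unadjusted p are named with their values, as are the 2 such genes of each other list. UHRF1 and the steadiest and most variable members were named after their values were seen, as were those whose groups did not overlap. Alternatives were DESeq2 1.42.0, limma-voom (limma 3.58.1), upper-quartile and RLE factors, a stricter filter (1 CPM in 6 libraries) or none, 1 transcript per gene, a replicate block, the compared groups alone, the pool as a covariate, CV41 alone and each library left out. Offsets for length and GC content, dCas9 replicate 3 left out of the shared spread, medians by role and list without that library, and levels per kilobase from all transcripts of a gene, were added after the data were seen. Of 18 correlations between same-numbered libraries of 2 groups (deviations from the group means over genes), 17 were above 0, with a range from -0.18 to 0.50. For dCas9 with D1399Y all 3 were above 0.1 (0.24, 0.49 and 0.50). So were those for dCas9-VP64 with the p300 core (0.28, 0.25 and 0.36), a pair not compared here. For the other 3 pairs of groups compared they were not all above 0.1. Such values may mark pairing, which the labels do not state and which was not tested. Scripts were tested on simulated data. Python 3.11.15, pandas 2.3.3 and matplotlib 3.10.9 were also used.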

Additional observations from a re-analysis of the deposited data

How the results depend on the processing

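No member passed the threshold in any of the 73 alternative fits, and 492 of 493 alternative fold changes of named members kept their direction and their side of it. The exception was E2F1 for the p300 core against D1399Y, at -0.037 with offsets for length and GC content. These members were named for their values in the same libraries and none passed, so that count was largely set in advance. It also leaves size aside. CENPF for dCas9-VP64 against dCas9 ran from 0.069 to 0.54 over the alternatives. AURKA for the p300 core against dCas9 ran from -0.17 to -0.0022. Adjusted p values of named members reached no lower than 0.195 in any alternative (UBE2C, D1399Y against dCas9). Counts over all genes moved. For dCas9-VP64 against dCas9 (0 genes) DESeq2, no filter, the replicate block and the length and GC offsets gave 1 each, and leaving out 1 library gave 0 to 1. For the p300 core against dCas9 (1 gene) RLE factors, upper-quartile factors, limma-voom and the offsets gave 2, no filter, the stricter filter and 1 transcript per gene gave 3, DESeq2 gave 4, and leaving out 1 library gave 1 to 2. For D1399Y against dCas9 (0 genes) RLE and upper-quartile factors, DESeq2, limma-voom, no filter, the stricter filter, 1 transcript per gene and the offsets gave 1, and leaving out 1 library gave 0 to 1. For the p300 core against D1399Y (1 gene) DESeq2 and the compared groups alone gave 4, and leaving dCas9 replicate 3 out of the shared spread gave 5. Class medians moved beyond the spread between replicates in 4 cases. The G2/M median for dCas9-VP64 against dCas9 ran from -0.18 (without dCas9 replicate 2) to 0.0021 over single libraries left out. For the p300 core against D1399Y the G2/M median was -0.011 with upper-quartile factors and ran from -0.069 to -0.0042 over single libraries left out, and the G1/S median was 0.074 in the CV41 libraries alone. The cause was not tested. With the replicate number as a block, the medians were -0.019, -0.075, -0.030 and -0.011 for G1/S and -0.033, -0.078, -0.047 and -0.049 for G2/M (dCas9-VP64, p300 core and D1399Y against dCas9, then p300 core against D1399Y). For D1399Y against dCas9, where same-numbered libraries deviated together, the block gave 0 genes, as without it, and it changed no call but the 1 gene for dCas9-VP64. With 3 libraries a group and 70 to 2431 counts per member and library, small changes were not detectable.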
